A study of Homo sapiens with 12 samples.

Results

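The comparison set 250 against 100 nM doxorubicin in fibroblasts on a soft substrate. It used 6 of the 12 libraries of the study, the 3 titled as 250 nM and the 3 titled as 100 nM on a 2 kPa hydrogel, chosen by their titles, and it covered all genes in the deposited tables. IMR90 cells are fibroblasts grown from fetal human lung, and all groups carried the label WT. Cells were seeded overnight, received doxorubicin for 24 h and were then kept in culture for at least 8 days to become senescent. All libraries came from polyadenylated RNA of cells that had received doxorubicin, so the 100 nM libraries are the reference and untreated cells were not analysed here. The other 6 libraries were the same doses on plastic and served only for comparison. Doses and substrate are given as in the sample titles, although the treatment protocol has µM in place of nM and the growth protocol has plates coated with PDMS in place of a hydrogel. The labels number the replicates 1 to 3 without saying that they were separate cultures, so p-values measure the spread between these libraries, which may be technical.

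Dose and library preparation cannot be told apart in these data. Unique molecular identifiers are mentioned in the file names of the 250 nM libraries and in none of the 100 nM libraries, and no library of either kind exists at the other dose. Every difference given below is therefore a difference between 250 nM libraries of one preparation and 100 nM libraries of another. Totals were 5887056 to 7351916 expected counts at 100 nM on gel and 2270689 to 2657899 at 250 nM, and genes with at least 5 counts numbered 14160 to 14362 and 11151 to 12234. Small nuclear and nucleolar RNAs took a share of 0.104% ± 0.0259 (SD, n = 3) at 100 nM and of 0.0178% ± 0.00378 at 250 nM, and mitochondrial ribosomal RNA took 7.48% ± 0.350 and 3.34% ± 0.590. Both shares differed in the same direction on plastic. Neither pair of groups overlapped on gel, and the exact two-sided permutation test gave p = 0.1, the smallest that 3 against 3 libraries allow. Replicate 1 at 250 nM on gel stood apart from the other 2 at that dose. Ribosomal DNA repeat loci held 13.2% of its counts against 27.4% and 25.5%, and its mean correlation with its own group was 0.845 against 0.895 and 0.901.

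**Figure D1:**
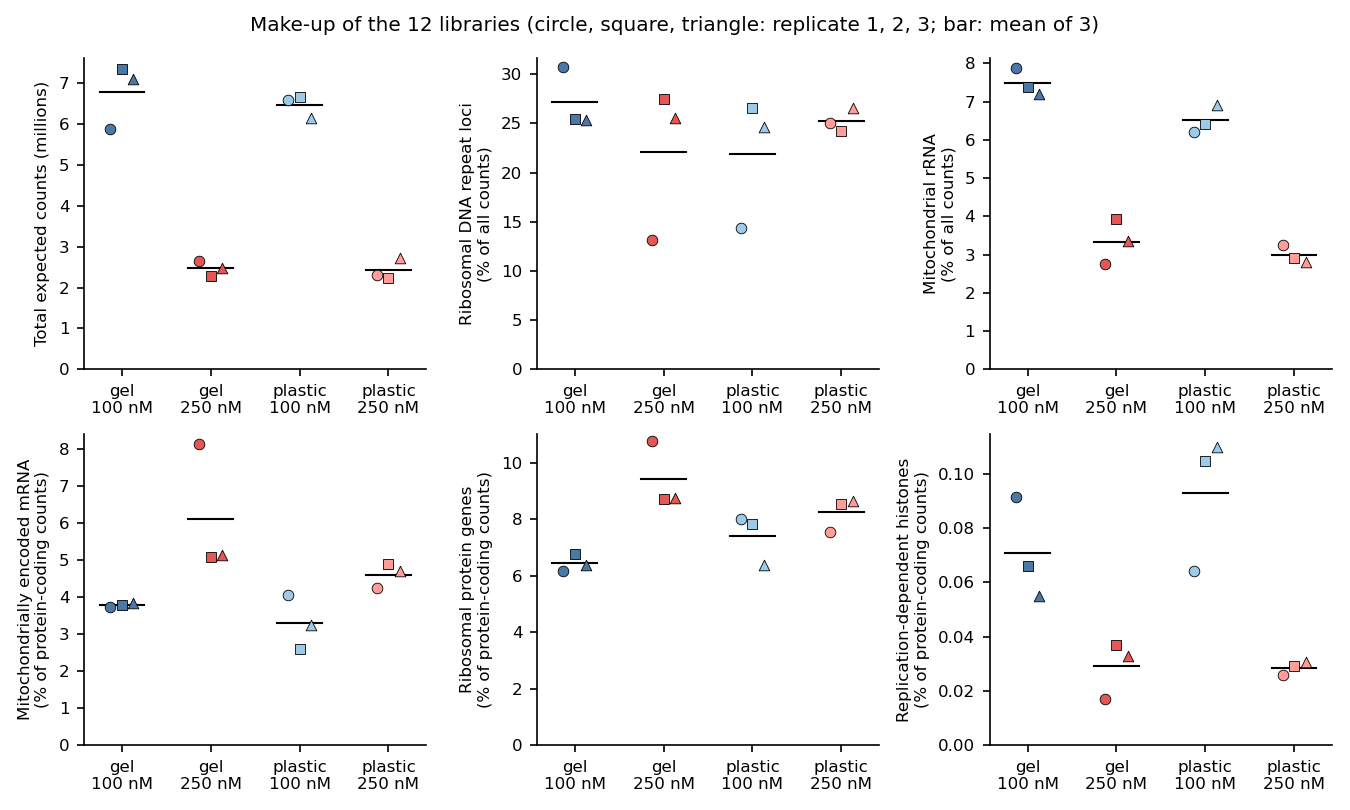
Total expected counts and 5 shares of counts are plotted for each of the 12 libraries by group, with 1 point per library and a bar at the mean of 3. Totals and mitochondrial rRNA separate the doses on both substrates, and replicate 1 at 250 nM on gel has the lowest share of ribosomal repeat loci (13.2%) and the highest share of mitochondrially encoded mRNA (8.11%).

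Doxorubicin is an anthracycline that intercalates into DNA and traps topoisomerase II on cut strands. The breaks activate the kinases ATM and DNA-PK and the transcription factor p53, whose target p21 (CDKN1A) blocks cyclin-dependent kinases. Sustained p21 and RB family activity brings DREAM and RB complexes to the promoters of cell-cycle genes and holds them silent, and cells that stay arrested become senescent, with altered nuclei and a secretory phenotype called SASP. The 15 fibroblast markers were all tested, and their summed level was 10334 to 13051 CPM at 100 nM and 10400.3 to 11752 CPM at 250 nM on gel. None of the 14 leukocyte markers passed the filter on low counts, and 8 of them had no count in the 6 gel libraries. In bulk RNA a smaller share of cells of a type and less RNA per cell cannot be told apart.

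Of 12329 genes tested, 1703 (13.8%) differed between the doses on gel at an adjusted p under 0.05 in edgeR's quasi-likelihood test with Benjamini-Hochberg adjustment. Of these, 852 (6.91% of those tested) were higher at 250 nM and 851 (6.9%) were lower. Levels are given as CPM, the usual depth-scaled counts after TMM scaling, and changes as the fitted log2 ratio of 250 to 100 nM. The median fold of the called genes was 2.22, and falls beyond 4-fold (191 genes) were more frequent than rises beyond 4-fold (64 genes). The 3 libraries of each dose did not overlap for 1692 of the 1703 called genes, against 35.8% of all genes tested. Calls and overlap are read from the same libraries, so the overlap gives the calls no separate support. The number of calls fell to 676 without replicate 1 at 100 nM on gel, to 793 without replicate 2 and to 1022 without replicate 3. It was 1297 without replicate 1 at 250 nM. In that order these were 5.8%, 6.8%, 8.8% and 9.5% of the genes tested in each fit, in either direction. Without replicates 2 and 3 at 250 nM the share was 11.4% and 9.0%. Counts of list members called without a library are to be read against these shares. Of 113 called genes named by the rule, 60 were called without each of the 6 gel libraries in turn, and leaving out replicate 1 at 100 nM lost the most (38 of 111 tested there). The median log2 change of all genes tested was -0.02.

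Genes of mitosis made up the list with the lowest median. Of 39 members, all tested, 21 were called lower and none higher, where 6.9% of all genes were called lower, and the median log2 change was -2.08. The called genes span the stages of division, from the kinases CDK1 and PLK1 to the kinesins KIF11, KIF20A and KIF23 and the cytokinesis scaffold ANLN. MKI67, the coat protein of mitotic chromosomes read as Ki-67, had 88.9, 39.2 and 24.8 CPM at 100 nM and 6.28, 1.94 and 5.90 CPM at 250 nM. Every 100 nM library lay above every 250 nM library. The fitted log2 change of MKI67 was -3.38 ± 0.69 (SE), 10.4-fold lower, with an edgeR adjusted p of 0.00969. ASPM, which focuses the poles of the spindle, had 150, 76.3 and 42.5 CPM at 100 nM and 4.63, 8.74 and 11.4 CPM at 250 nM, a log2 change of -3.46 ± 0.63. KIF11, the kinesin that pushes spindle poles apart, had 26.7, 13.2 and 7.56 CPM against 1.65, 1.46 and 1.26 CPM, and the log2 change was -3.39 ± 0.69. The log2 changes of MKI67, ASPM and KIF11 were -2.70, -2.86 and -2.78 without replicate 1 at 100 nM, all still called. In these 3 genes, as in CENPE, ANLN, BUB1B and DLGAP5, replicate 1 was the highest of the 100 nM libraries and replicate 3 the lowest.

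The checkpoint kinases BUB1B and BUB1, which hold back anaphase until chromosomes are attached, had 16.3, 8.11 and 4.13 CPM and 19.2, 8.38 and 6.27 CPM at 100 nM. At 250 nM BUB1B had 0.330, 0.486 and 1.26 CPM, and BUB1 had 0, 0.486 and 2.53 CPM. BUB1B was at a log2 change of -3.75 (-3.12 without replicate 1 at 100 nM and -4.51 without replicate 3 at 250 nM). BUB1 was at -3.52 and lost its call without replicate 1 or 2 of either dose (-2.84 to -3.69), and was at -5.66 without replicate 3 at 250 nM. CENPE, a motor of the kinetochore, fell from 113, 73.8 and 48.3 CPM to 9.25, 10.2 and 11.8 CPM (log2 change -2.91 ± 0.49, edgeR adjusted p = 0.00506). The mitotic cyclin CCNB1 overlapped between the doses, at 30.3, 24.9 and 12.8 CPM against 18.5, 4.37 and 4.21 CPM, and did not pass the test (log2 change -1.27, edgeR adjusted p = 0.12). Its outlying value at 250 nM was replicate 1, and without that library its log2 change was -2.42 with an edgeR adjusted p of 0.016. Without the same library 25 of the 39 mitosis genes were called lower with a median of -2.84. Without replicate 1 at 100 nM 8 of 38 were called lower with a median of -1.71, where 5.8% of all genes were called in either direction. With the trend against GC content removed 15 were called with a median of -1.79, where 12.9% of all genes were called. On plastic 18 of the 39 were called lower, where 4.48% of all genes were, with a median of -1.91. On both substrates 11 were called.

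**Figure D2:**
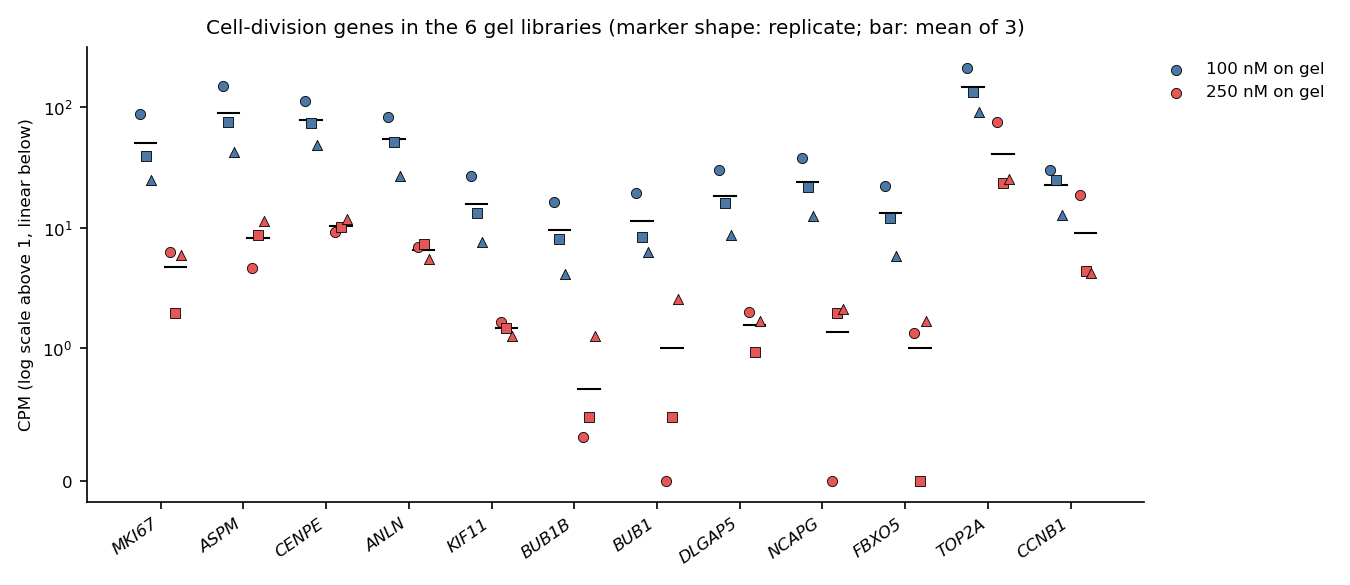
CPM of 12 cell-division genes in the 6 gel libraries, on an axis that is logarithmic above 1 and linear below, with 1 point per library and a bar at the mean of 3. In every gene except CCNB1 the 250 nM libraries lie below all 100 nM libraries.

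Promoters of the mitosis genes are shown because many share a pair of short elements known from cell-cycle genes, the CHR (TTTGAA or TTTAAA), which the DREAM complex reads, and the CCAAT box read by NF-Y. Each line below is the 100 bases before the RefSeq gene start (assembly GRCh38.p14), 5′ to 3′ on the gene's strand, with matches to either element on either strand in capitals. They are MKI67 (chr10:128126424-128126523, minus strand), KIF11 (chr10:92593030-92593129, plus), BUB1B (chr15:40160969-40161068, plus), ANLN (chr7:36389762-36389861, plus), ASPM (chr1:197146670-197146769, minus) and BUB1 (chr2:110678064-110678163, minus), 5 called genes with a CHR and 1 called gene without.
MKI67: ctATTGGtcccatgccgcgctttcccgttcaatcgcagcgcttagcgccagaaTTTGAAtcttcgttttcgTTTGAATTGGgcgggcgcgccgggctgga
KIF11: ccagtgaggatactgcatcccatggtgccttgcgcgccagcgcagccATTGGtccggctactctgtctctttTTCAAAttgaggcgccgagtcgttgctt
BUB1B: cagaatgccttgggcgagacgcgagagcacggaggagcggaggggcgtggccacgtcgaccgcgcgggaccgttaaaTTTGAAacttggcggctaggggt
ANLN: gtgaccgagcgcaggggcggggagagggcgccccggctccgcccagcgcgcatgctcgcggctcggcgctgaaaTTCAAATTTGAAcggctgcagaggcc
ASPM: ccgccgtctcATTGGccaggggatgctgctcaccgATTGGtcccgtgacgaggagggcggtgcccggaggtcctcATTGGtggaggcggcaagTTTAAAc
BUB1: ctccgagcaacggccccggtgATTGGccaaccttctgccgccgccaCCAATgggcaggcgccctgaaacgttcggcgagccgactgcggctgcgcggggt
In MKI67 one CHR match and one CCAAT match share bases. A CHR match lay in the last 100 bases before the start in 70% of the 20 windows of called mitosis genes, in 35% of the 20 windows of mitosis genes that were not called and in 8.24% of all 35116 windows. A CCAAT match lay there in 75%, 55% and 18.1%, and both lay there in 55%, 30% and 1.59%. The table held windows for 34 of the 39 mitosis genes, some with more than 1 start. A match is a run of letters and does not show binding.

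Of 41 tested genes of DNA replication 3 were called lower (7.32%, near the 6.9% of all genes) and none higher, with a median log2 change of -0.63. None was called without replicate 1 at 100 nM or without replicate 3 at 250 nM, and 6 were without replicate 3 at 100 nM. The replication licensing factor MCM4 had 44.3, 29.3 and 30.4 CPM at 100 nM and 18.5, 20.9 and 19 CPM at 250 nM (log2 change -0.83 ± 0.23, edgeR adjusted p = 0.0317). The doses did not overlap for GMNN, the inhibitor of licensing, at 28.3, 17.3 and 12.3 CPM against 8.26, 8.74 and 7.59 CPM. PRIM1, the catalytic subunit of primase, was called lower from few counts, and its log2 change was 0.89 once genes with overlapping exons were summed. The helicase subunit MCM2 had 2.00, 3.44 and 2.85 CPM against 1.32, 1.46 and 0.843 CPM and was not called. Of 18 replication-dependent histone genes that passed the filter, out of 55, 7 were called lower (38.9%, against 6.9% of all genes) and 1 higher. H4C3, which encodes histone H4, had 313, 201 and 143 CPM at 100 nM and 12.6, 25.2 and 14.8 CPM at 250 nM (log2 change -3.66 ± 0.55, edgeR adjusted p = 0.00384). The linker histone genes H1-3 and H1-4 had no count at 250 nM, and were at least 15.3-fold and 11.7-fold lower if 3 counts over the group are taken as the floor. They passed the filter only through libraries of the other groups, so the filter has a part in the share of histones called lower. The gene called higher, H2AC18, had counts in 1 library of 6 and has a near-identical neighbouring copy, so its value is uncertain. With no filter on low counts, 8 of 46 histone genes were called lower and 1 higher, where 7.83% of all genes were called in either direction. Most replication-dependent histone mRNAs end in a stem-loop in place of a poly(A) tail, and the small nuclear and nucleolar RNAs that lack such a tail also took a lower share at 250 nM. The part of library preparation in the histone values was not tested. The share of these histones in protein-coding counts was 0.0708% ± 0.0187 at 100 nM and 0.0290% ± 0.0106 at 250 nM on gel, and 0.0930% and 0.0285% on plastic.

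The topoisomerases that doxorubicin traps were both lower at 250 nM. TOP2A, the isoform of dividing cells, had 214, 134 and 91.7 CPM at 100 nM and 75.3, 23.3 and 25.3 CPM at 250 nM, a log2 change of -1.81 ± 0.51 (edgeR adjusted p = 0.0325). Without replicate 1 at 250 nM its log2 change was -2.61, and without any 1 of the others except replicate 3 at 100 nM TOP2A was not called. TOP2B, the isoform also made by resting cells, had 106, 111 and 99.4 CPM and then 37.0, 64.6 and 70.0 CPM, a log2 change of -0.89 ± 0.24 (edgeR adjusted p = 0.0288). Neither gene's libraries overlapped between the doses. ABCC1, an efflux pump that exports anthracyclines, fell from 13.8, 10.7 and 11 CPM to 0.661, 0.971 and 3.79 CPM (log2 change -2.72 ± 0.48, edgeR adjusted p = 0.00598, and -3.88 without replicate 3 at 250 nM). AKR1A1, a reductase that acts on the drug's side-chain ketone, rose from 33.6, 40.0 and 48.1 CPM to 106, 110 and 76.3 CPM, and CBR1, a carbonyl reductase with the same substrate, rose by 0.70 on the log2 scale. The pump ABCB1 had 5, 4 and 2 counts at 100 nM and 0, 1 and 0 at 250 nM and did not pass the filter. Over the 20 tested genes of doxorubicin target, efflux and metabolism, 2 were called higher and 4 lower, with a median of 0.00. These shares were 10% and 20%, against 6.91% and 6.9% of all genes.

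Of 38 genes of DNA damage signalling and repair, all tested, 9 were called lower (23.7%, against 6.9% of all genes) and none higher, with a median log2 change of -0.86. The count was 3 without replicate 1 at 100 nM and 5 without replicate 1 or 3 at 250 nM. PRKDC, the catalytic subunit of DNA-PK, had 163, 126 and 124 CPM at 100 nM and 2.64, 27.7 and 29.5 CPM at 250 nM. The 250 nM libraries were all far below, replicate 1 the furthest, and the log2 change was -2.82 ± 0.51 with all of them and -2.29 without that replicate. ATM, the kinase that responds to breaks, had 67.7, 47.6 and 45.1 CPM against 19.8, 30.1 and 19.4 CPM (log2 change -1.22 ± 0.27, edgeR adjusted p = 0.0124). TDP2, the enzyme that removes trapped topoisomerase II from DNA ends, had 17.8, 19.5 and 15 CPM against 5.29, 7.77 and 4.21 CPM (log2 change -1.61 ± 0.29, edgeR adjusted p = 0.00665). BRCA2, which acts in homologous recombination, had 32.5, 16.8 and 8.13 CPM against 0.991, 3.4 and 3.37 CPM, and followed the order of the mitosis genes among the 100 nM libraries. The others called lower were ATR, FANCD2, BARD1, LIG4 and NBN. The median GC content of this list was 43.7% and that of the mitosis list 43.2%, against 48.6% over all tested genes. Of 4 equal groups of genes by GC content, the lowest had a median log2 change of -0.39 on gel and the highest 0.36. The mean GC content over nuclear protein-coding counts was 50.3% in replicate 1 at 250 nM and 48.7% and 48.9% in replicates 2 and 3. At 100 nM it was 48.3% to 48.4%. With each library's trend against GC content removed, 4 repair genes were called lower and the list's median was -0.46.

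CDKN1A, the p53 target that encodes p21, was higher at 250 nM. It had 479, 664 and 788 CPM at 100 nM and 1299, 1129 and 1219 CPM at 250 nM, with no overlap, and the log2 change was 0.92 ± 0.22 (edgeR adjusted p = 0.0184). Without replicate 1 or replicate 2 at 100 nM it was not called, at 0.76 and 0.94. Of 42 tested p53 targets 5 were called higher (11.9%, against 6.91% of all genes) and 3 lower (7.14%, against 6.9%), and the median was 0.16. Only 1 was called higher without replicate 1 or without replicate 2 at 100 nM. AEN, an apoptosis-enhancing nuclease, rose from 32.3, 28.9 and 37.9 CPM to 98.5, 74.8 and 65.7 CPM (log2 change 1.27 ± 0.22, edgeR adjusted p = 0.0051). TRIAP1 and TP53INP1 were the next by p-value among those called higher, at log2 changes of 0.99 and 0.86, and TP53I3 was also called. PLK2, a polo-like kinase, fell from 60.2, 67.2 and 63.7 CPM to 27.8, 31.6 and 37.5 CPM (log2 change -0.98 ± 0.20), and ANKRA2 and RRM2B, a ribonucleotide reductase subunit induced by p53, were lower too. MDM2, the ligase that degrades p53, had 200, 119 and 151 CPM against 268, 133 and 155 CPM, which overlapped (log2 change 0.24, edgeR adjusted p = 0.573). GDF15, a secreted p53 target, had 208, 72.0 and 83.6 CPM against 464, 125 and 104 CPM, and replicate 1 was the highest library at each dose (log2 change 0.94, edgeR adjusted p = 0.27). The death receptor FAS was not called either, at a log2 change of 0.55.

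Of 25 tested nuclear and cell-cycle genes used as signs of senescence, 1 was called higher (CDKN1A) and 6 lower (24% against 6.9% of all genes), with a median of -0.55. The count called lower was 1 without replicate 1 at 100 nM and 3 without replicate 2 at that dose. The list was not split by the direction that senescence would give, so its share called lower is no measure of senescence. RB1, the retinoblastoma protein, had 29, 42.5 and 30.1 CPM at 100 nM and 15.2, 11.2 and 11.8 CPM at 250 nM (log2 change -1.40 ± 0.28, edgeR adjusted p = 0.00859). Its relative RBL1 fell by 2.47 and the histone methyltransferase EZH2 by 2.79 on the log2 scale. The chromatin proteins HMGB1 and HMGB2, which senescent cells lose from the nucleus, were lower at log2 changes of -1.36 and -1.71. HMGB1 had 782, 545 and 403 CPM against 158, 258 and 258 CPM, and HMGB2 had 23.6, 22.7 and 11.1 CPM against 4.30, 4.37 and 8.85 CPM. The remaining gene called lower was MACROH2A1, at a log2 change of -0.60 (edgeR adjusted p = 0.0459). The lamin LMNB1 overlapped between the doses, at 20.1, 21.7 and 7.70 CPM against 9.91, 0.971 and 3.37 CPM, and did not pass (log2 change -1.70, edgeR adjusted p = 0.103). Its outlying value at 250 nM was replicate 1, and without that library its log2 change was -2.89 with an edgeR adjusted p of 0.0385. CDKN2A, which encodes p16 and ARF, varied more within a dose than between doses, with 7.08, 56.8 and 42.9 CPM against 16.5, 42.7 and 41.3 CPM.

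**Figure D3:**
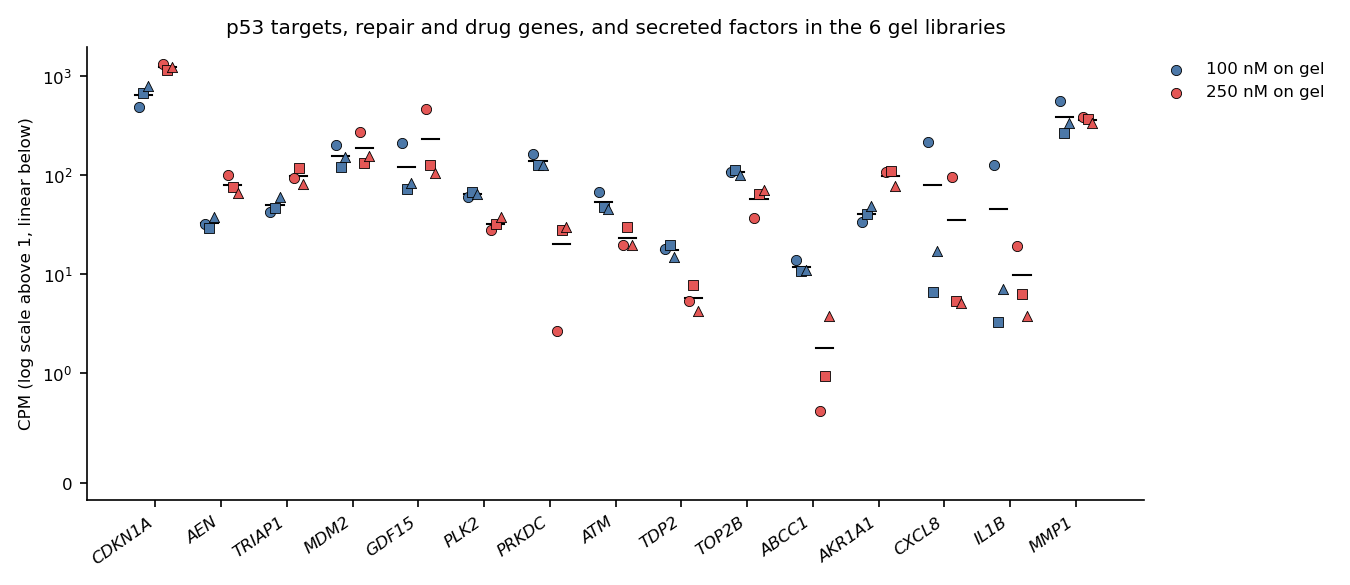
CPM of 15 genes of the p53 response, DNA repair, doxorubicin handling and secretion in the 6 gel libraries, on an axis that is logarithmic above 1 and linear below, with 1 point per library and a bar at the mean of 3. CDKN1A, AEN, TRIAP1 and AKR1A1 are higher in every 250 nM library and PRKDC, ATM, TDP2, TOP2B, ABCC1 and PLK2 lower, while MDM2, GDF15, CXCL8, IL1B and MMP1 overlap.

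Of 15 SASP cytokines and chemokines that passed the filter, out of 30, 1 was called higher and 1 lower, a share of 13.3% against 13.8% of all genes. Those were the TNF receptor gene TNFRSF1A, at 39.9, 49.9 and 49.3 CPM against 87.9, 90.8 and 85.1 CPM, and osteoprotegerin (TNFRSF11B), at 54.6, 21.4 and 24.5 CPM against 10.2, 12.6 and 10.1 CPM. The chemokine CXCL8 had 213, 6.60 and 17 CPM at 100 nM and 95.8, 5.34 and 5.06 CPM at 250 nM. IL1B had 125, 3.30 and 7.13 CPM and then 19.2, 6.31 and 3.79 CPM. Replicate 1 was the highest library at each dose for both genes, the doses overlapped, and neither passed (edgeR adjusted p = 0.559 and 0.171). IL6 had 68, 13 and 11 counts at 100 nM and none at 250 nM, where no count in 3 libraries allows up to 0.402 CPM, and it did not pass the filter. The part of depth in that difference was not tested. CCL2 had 2.42 to 3.08 CPM against 1.94 to 2.31 CPM and was not called.

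Of 42 tested SASP proteases, inhibitors and growth factors 4 were called higher and 2 lower, a share of 14.3% against 13.8% of all genes. TIMP2, an inhibitor of matrix metalloproteinases, rose from 364, 434 and 434 CPM to 1142, 780 and 752 CPM (log2 change 1.12 ± 0.20, edgeR adjusted p = 0.00591). The lysosomal protease CTSB rose from 409, 574 and 612 CPM to 803, 1039 and 1102 CPM. IGFBP6 and osteopontin (SPP1) were the other rises, at log2 changes of 1.12 and 2.58, and VEGFA and TGFB1 were the falls, at -0.74 and -2.92. TGFB1 had at most 1.26 CPM at 250 nM, and its log2 change was -0.61 with overlapping genes summed. The collagenase MMP1 had 554, 264 and 335 CPM against 379, 364 and 334 CPM, and the glycoprotein hormone STC1 had 3744, 1480 and 2099 CPM against 2341, 2212 and 2016 CPM. Both overlapped, with log2 changes of -0.10 ± 0.28 and -0.16 ± 0.29. MMP3 was not called either, at a log2 change of -0.79.

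Among 41 tested genes of fibrillar and interstitial matrix, 2 were called higher and 2 lower with a median of -0.08, and their called share of 9.76% lay below the 13.8% of all genes. None was called without replicate 3 at 100 nM. The proteoglycan LUM rose from 18.7, 25 and 14 CPM to 44.9, 33.0 and 33.7 CPM (log2 change 0.96 ± 0.24, edgeR adjusted p = 0.0228). VCAN and the microfibril gene FBN1 fell, at log2 changes of -0.87 and -0.86. The fourth, EFEMP2, was called higher at 0.62, and it had -0.06 with overlapping genes summed. COL1A1 had 452, 569 and 454 CPM against 445, 615 and 729 CPM and did not pass (log2 change 0.28 ± 0.20, edgeR adjusted p = 0.372), nor did COL3A1. Of 33 tested contractile genes and SRF targets 3 were called higher and 1 lower, 12.1% in all and near the 13.8% of all genes. Smooth muscle actin (ACTA2) rose from 33.2, 97.5 and 99.0 CPM to 147, 195 and 196 CPM (log2 change 1.22 ± 0.36, edgeR adjusted p = 0.0367). Its exons overlap those of FAS, so reads can be split between them. The myosin light chain MYL9 and the transcription factor SRF rose by 1.00 and 0.93 on the log2 scale, and PDLIM7 fell by 1.05. The intermediate filament VIM fell from 3266, 3337 and 2933 CPM to 858, 1638 and 1521 CPM. Pericyte and smooth muscle markers summed to 164 to 289 CPM at 100 nM and 346 to 463 CPM at 250 nM, and no marker of this list was without a count. Of the 6 tested only ACTA2 and CSPG4 were called, both higher. ACTA2 alone had a mean of 76.5 CPM at 100 nM and 179 CPM at 250 nM. RGS5, CNN1 and NOTCH3 were not called, at log2 changes of 0.50, 0.55 and 0.83, nor was MCAM at -0.12.

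YAP and TAZ, coactivators that respond to stiffness, had 6 of 26 target genes called lower (23.1%, against 6.9% of all genes) and none higher, with a median of -0.40. Their median transcript length was 2790 bases against 2028 over all tested genes. With each library's trend against length removed 3 were called lower, where 13.1% of all genes were called in either direction. With the 6 gel libraries fitted alone 2 were, where 4.6% of all genes were called. MYOF, a membrane repair protein, had 176, 170 and 155 CPM at 100 nM and 57.2, 78.2 and 80.9 CPM at 250 nM (log2 change -1.22 ± 0.20, edgeR adjusted p = 0.005). AMOTL2, RBMS3 and CRIM1 fell by 0.93, 1.16 and 1.01 on the log2 scale, and DOCK5 and NT5E were the remaining calls. The classical targets CCN1 and CCN2 were not called, at log2 changes of -0.97 and -0.11. Of 26 TGF-beta response genes 1 was called higher (TGFBI, 0.99) and 3 lower, 15.4% in all and near the 13.8% of all genes. The pathway inhibitors SKIL and SKI were among the falls, at -1.19 and -0.96. Of 29 immediate early genes 4 were called lower (13.8%, against 6.9% of all genes), which were KLF2, EGR3, KLF10 and MYC, and none higher. Only 1 was called lower without replicate 2 at 100 nM or without replicate 1 at 250 nM. EGR3 rests on few counts, at 5.99, 2.06 and 2.71 CPM against 0, 0.486 and 0.421 CPM. On plastic its log2 change was 0.90 and was not called. MYC had 8.16, 21.6 and 17.4 CPM against 3.63, 5.34 and 5.06 CPM (log2 change -1.77 ± 0.54, edgeR adjusted p = 0.0459). Of 24 NF-kB targets 2 were called higher and 1 lower, with the subunit RELA at a log2 change of 1.20 and the kinase RIPK2 at -0.93. Of 28 interferon-stimulated genes 2 were called higher (TAP1 and STAT2) and 1 lower (IFIT5). Of 24 apoptosis genes CASP8 and BCL2L13 were called lower and none higher. CASP8 rests on few counts, at 2.72, 4.67 and 4.13 CPM against 0, 0 and 0.843 CPM. Its log2 change ranged from -7.21 to -1.30 over the alternatives. The called share of the last 3 lists was 12.5%, 10.7% and 8.33%, against 13.8% of all genes.

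Of 31 tested glycolytic and hypoxia genes 8 were called higher (25.8%, against 6.91% of all genes) and 2 lower, with a median log2 change of 0.42. Adrenomedullin (ADM), a vasodilator peptide induced by hypoxia, had 47.7, 48.3 and 60.9 CPM at 100 nM and 156, 156 and 155 CPM at 250 nM. The 3 libraries at 250 nM had an SD of 0.718 CPM, and the log2 change was 1.58 ± 0.20 with an edgeR adjusted p of 0.00198. Phosphoglycerate kinase (PGK1) rose from 777, 992 and 1043 CPM to 1951, 2332 and 2132 CPM, and lactate dehydrogenase (LDHA) from 831, 1235 and 1349 CPM to 1900, 2892 and 2909 CPM. TPI1, HK1, GAPDH, PFKFB3 and PGAM1 were the other rises, and KDM3A and VEGFA, both induced by hypoxia, fell by 1.20 and 0.74 on the log2 scale. Without replicate 1 at 100 nM 3 were called higher and 1 lower, and without replicate 1 at 250 nM 6 and none. The median GC content of this list was 55.0%, against 48.6% over all tested genes. With each library's trend against GC content removed 5 were called higher and 2 lower, with a median of 0.38, where 12.9% of all genes were called.

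Enzymes of cholesterol synthesis were called higher in 7 of 24 (29.2%, against 6.91% of all genes) and lower in none, with a median of 0.55. Squalene epoxidase (SQLE) had 62.2, 69.6 and 82.4 CPM at 100 nM and 133, 139 and 128 CPM at 250 nM (log2 change 0.90 ± 0.17, edgeR adjusted p = 0.00735). FDPS rose from 50.3, 45.9 and 58.6 CPM to 186, 101 and 105 CPM and MVD, which makes isopentenyl pyrophosphate, from 5.99, 8.25 and 7.27 CPM to 20.8, 18.4 and 14.8 CPM. MVK and EBP were also called. ACAT2 had the smallest p of the list, but its exons overlap those of TCP1, and its log2 change was 1.44 alone and 0.26 with both genes summed. Between 4 and 10 members were called higher under all alternatives except the one that left out genes with overlapping exons, where 3 of 10 were. Of 36 tested lysosomal genes 6 were called higher (16.7%, against 6.91% of all genes) and none lower, with a median of 0.44. Without replicate 2 at 100 nM 2 were called higher. Acid sphingomyelinase (SMPD1) had 21.2, 26.1 and 33.6 CPM against 51.9, 74.3 and 61.1 CPM, and the tetraspanin CD63 had 714, 910 and 951 CPM against 1803, 1373 and 1260 CPM. Acid ceramidase (ASAH1) and neuraminidase (NEU1) were also called.

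Nuclear genes of oxidative phosphorylation were called higher in 22 of 50 (44%, against 6.91% of all genes) and lower in 1, with a median of 0.69. COX5A, a subunit of cytochrome c oxidase, had 154, 191 and 185 CPM at 100 nM and 312, 414 and 355 CPM at 250 nM (log2 change 1.03 ± 0.18, edgeR adjusted p = 0.00528). COX7C, ATP5PF and SDHA rose by 1.21, 1.08 and 1.01 on the log2 scale, and ATP5PD was the single fall at -0.91. Of the 13 genes encoded in mitochondrial DNA 7 were called higher and 1 (MT-ND2) lower, against 6.91% and 6.9% of all genes. Their median was 0.88. MT-ATP6, an ATP synthase subunit, had 2041, 1905 and 1982 CPM against 9746, 6030 and 5789 CPM. Its log2 change was 1.86 ± 0.27, and it was 0.96 with overlapping mitochondrial genes summed. Genes encoded in mitochondrial DNA took 3.78% ± 0.0453 of protein-coding counts at 100 nM and 6.10% ± 1.74 at 250 nM, or 5.10% as the mean of replicates 2 and 3.

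Ribosomal protein genes were called higher in 33 of 78 (42.3%, against 6.91% of all genes) and lower in none, with a median of 0.59. RPL35, of the large subunit, had 222, 219 and 206 CPM at 100 nM and 681, 475 and 521 CPM at 250 nM (log2 change 1.37 ± 0.18, edgeR adjusted p = 0.00245). RPS4X, of the small subunit, rose from 219, 221 and 229 CPM to 636, 503 and 525 CPM. These genes have many processed pseudogenes, to which reads can be split. Replicate 1 at 250 nM was the highest library for RPL35, RPS4X, RPS27A and RPL9. Ribosomal protein and oxidative phosphorylation genes have short transcripts, with median lengths of 540 and 649 bases against 2028 over all tested genes. Of 4 equal groups of genes by length, the shortest had a median log2 change of 0.21 and the longest -0.24. The mean length over nuclear protein-coding counts was 2043 bases in replicate 1 at 250 nM and 2234 and 2229 in replicates 2 and 3. At 100 nM it was 2402.5 to 2489 bases. With each library's trend against length removed, 15 ribosomal protein genes were called higher and 2 lower with a median of 0.31, and 13 oxidative phosphorylation genes were called higher with a median of 0.48. Without replicate 1 at 250 nM the counts called higher were 21 and 15, and without replicate 1 at 100 nM 11 and 10. On plastic 7 of 78 and 3 of 50 were called higher, where 4.04% of all genes were, with medians of 0.17 for both lists.

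Of 35 genes of the unfolded protein and ATF4 responses, 3 were called higher (8.57%, near the 6.91% of all genes) and 7 lower (20% against 6.9%). Without replicate 2 at 100 nM none was called higher and 1 lower. ATF4, the transcription factor of the integrated stress response, rose from 79.1, 74.4 and 85.4 CPM to 195, 196 and 217 CPM (log2 change 1.35 ± 0.31, edgeR adjusted p = 0.0161). Its partner and target DDIT3 (CHOP) rose from 5.26, 3.57 and 8.13 CPM to 17.2, 17.5 and 15.6 CPM. The third was CRELD2 at 0.99. EDEM1, which delivers misfolded glycoproteins for degradation, fell from 26.5, 25.8 and 24.0 CPM to 4.96, 6.80 and 6.74 CPM (log2 change -2.05 ± 0.29, edgeR adjusted p = 0.00292). The chaperones and folding enzymes HSP90B1, CALR, PDIA4, PDIA6 and MANF fell by 0.73 to 1.25 on the log2 scale, and the phosphatase subunit PPP1R15A fell by 1.35. Among 23 tested NRF2 targets 2 were called higher and 3 lower, 21.7% in all against 13.8% of all genes. The ferritin light chain FTL rose by 0.81 on the log2 scale, while NRF2 itself (NFE2L2) had 128, 80.6 and 83 CPM against 25.1, 55.4 and 48.0 CPM and TXNRD1 fell by 0.71.

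**Figure D4:**
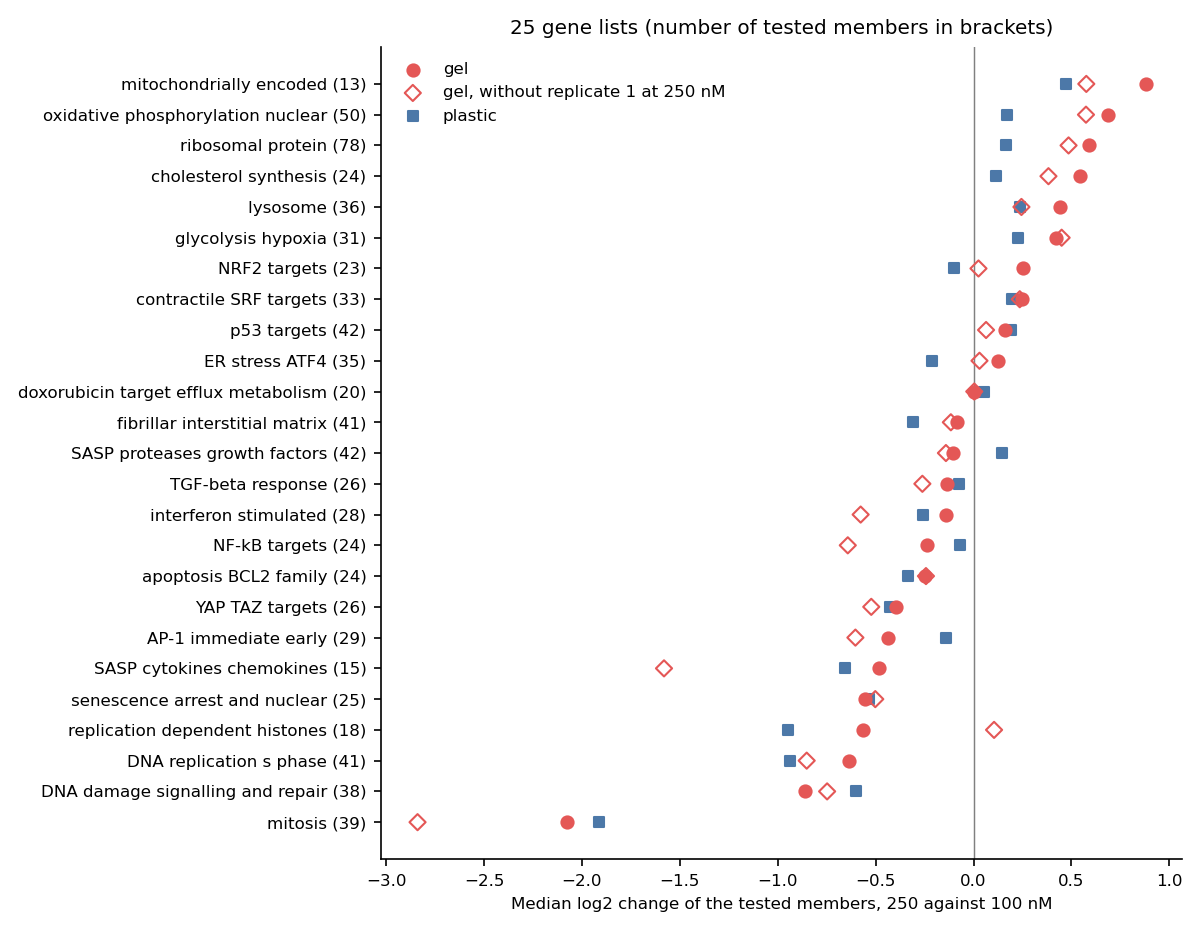
Median log2 change between 250 and 100 nM over the tested members of each of 25 gene lists, on gel with all libraries, on gel without replicate 1 at 250 nM, and on plastic. Numbers in brackets are members tested with all libraries, and the count can differ without that replicate. The mitosis list has the lowest medians in all 3 (-2.08, -2.84 and -1.91), and the median of the histone list changes sign without replicate 1, to 0.11.

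Of all tested genes 40.9% overlap exons of a gene on the other strand, as do 41.5% of the called genes and 44.7% of those called beyond 4-fold. Of the 10 largest rises 8 do, and of the 10 largest falls 4. Among called protein-coding genes with a mean of at least 5 CPM, the 10 that rose most were C7orf25, RPS6KB2, TLE5, CCDC86, TUBA1B, RPS10-NUDT3, RAB1B, CCDC107, PIERCE1 and DPP7. TUBA1B, an alpha-tubulin, had 6.53, 290 and 155 CPM at 100 nM and 2805, 1469 and 1523 CPM at 250 nM, a log2 change of 3.68. The gene annotated on the opposite strand, TUBA1B-AS1, had 866, 835 and 778 CPM at 100 nM and no count at 250 nM. The sum of both was 977 ± 131 CPM at 100 nM and 1932 ± 756 CPM at 250 nM, a ratio of 1.98. TLE5, a corepressor, rose by 5.03 on the log2 scale alone and by 0.70 summed with its overlapping genes. CCDC86 rose by 4.36 alone and 0.89 summed. RAB1B, a small GTPase of the secretory pathway, was at 3.43 alone and -0.25 summed, and C7orf25, with no count at 100 nM, was at -0.23 summed. CCDC107 was at 2.58 alone and 2.51 summed, and at 1.38 without replicate 1 at 250 nM. The peptidase DPP7 was at 2.34 alone, 2.35 summed and 1.77 without that library. Without replicate 2 at 100 nM, which held the highest TUBA1B level of that dose, TUBA1B was at 4.58, and without replicate 3 it was not called.

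Genes with at least 50 counts in each 100 nM gel library and none in any 250 nM gel library numbered 11, and all 11 overlap exons of a gene on the other strand. Of these 8 also had no count in the 250 nM plastic libraries, and no gene showed the reverse pattern on gel. SPAG8, the 1 protein-coding gene among them, had 53, 74 and 101 counts at 100 nM and was at least 28.3-fold lower at 250 nM, yet its locus had a log2 change of 0.47 once summed with its neighbours. The strand setting of the counting is not given in the sources used here, so reads of such pairs cannot be told apart. Among the 10 largest falls, SPAG8, NCAPG and FBXO5 moved most when summed. NCAPG, a condensin subunit, was at -4.25 alone and -1.21 summed, and FBXO5, an inhibitor of the anaphase-promoting complex, at -3.61 and -0.71. The other 7 were BUB1B, H4C3, BUB1, DLGAP5, ASPM, the replication clamp unloader ATAD5 and the Wnt receptor FZD1. FZD1 had 7.80, 11.7 and 7.84 CPM against 0, 2.43 and 0.421 CPM, a log2 change of -3.40, and of -2.74 and -5.44 without replicates 1 and 2 at 250 nM. Summing overlapping genes into 10112 loci left 1552 called, and leaving such genes out left 782 called of 6205.

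**Figure D5:**
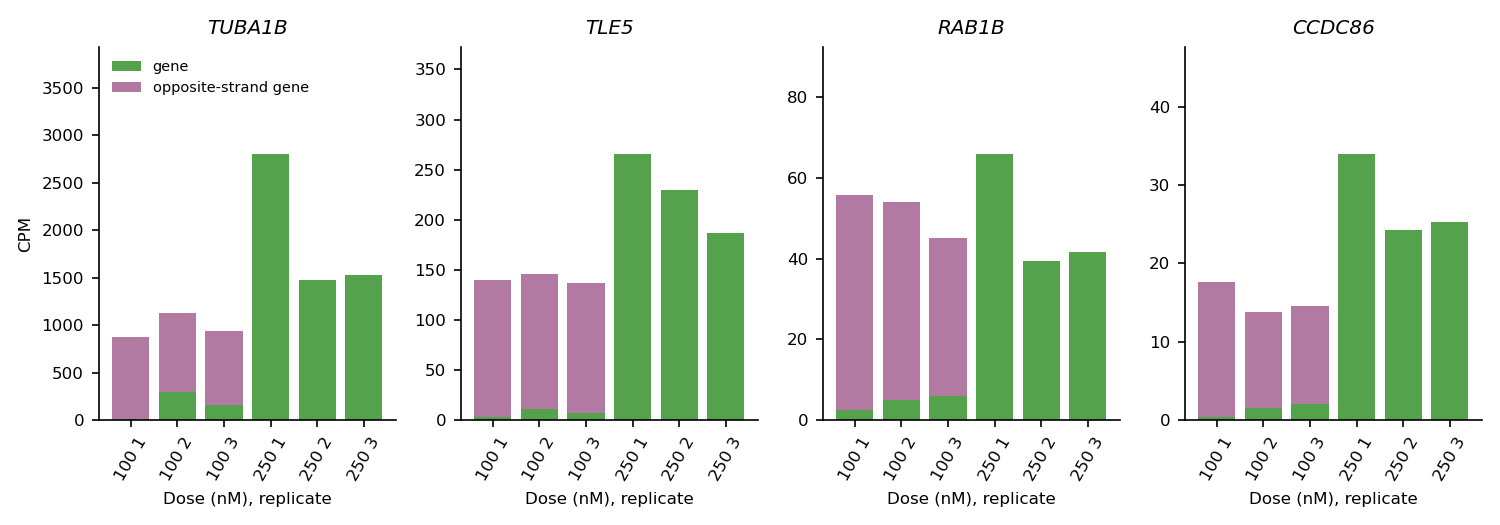
Stacked CPM of 4 genes and of the gene annotated on the opposite strand in the 6 gel libraries, with the dose in nM and the replicate number on the axis. At 100 nM most counts of each pair stand on the opposite-strand gene and at 250 nM none do.

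The same contrast on plastic, confounded with preparation in the same way, called 1050 genes (8.52%), 498 higher (4.04%) and 552 lower (4.48%). Both contrasts called 586 genes, 34.4% of the gel calls and 55.8% of the plastic calls, all in the same direction. Of the 1703 gel calls 1648 had the same sign on plastic (96.8%), against 72.7% of all genes tested. The test of the difference between the dose changes on gel and on plastic called no gene in edgeR at an adjusted p under 0.05. At an unadjusted p under 0.05 it held 779 genes (6.32%), and DESeq2 and limma-voom also called 0. CDKN1A was 0.92 on gel and 0.38 on plastic (edgeR adjusted p = 0.301 on plastic), and the difference of 0.54 ± 0.31 was not called. ADM was 1.58 on gel and 1.59 on plastic. LUM was higher in every 250 nM library than in every 100 nM library on gel and lower in every one on plastic, where it had 76.1, 94.6 and 70.3 CPM at 100 nM and 67.9, 53.5 and 49.9 CPM at 250 nM. MMP1 and STC1 were called higher at 250 nM on plastic (1.17 and 1.01) and not on gel, and the differences of -1.26 ± 0.40 and -1.17 ± 0.41 had edgeR adjusted p-values of 0.75.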

How the data were processed

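Libraries were made from polyadenylated RNA of IMR90 fibroblasts, 3 per dose and substrate. Build GRCh38 and the tools STAR, RSEM, Trimmomatic and DESeq2 1.36.0 are listed in the submitters' processing notes. No source used here states the strand setting or whether molecular identifiers were collapsed. The expected counts were deposited by the authors as RSEM gene estimates, 1 table of 61541 identifiers per library, per the file headers. The deposited TPM values, scaled by RSEM for effective length and to the same sum in every library, served 1 alternative, and FPKM was not used.

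Expected counts were rounded and fitted with edgeR 4.0.16 in R 4.3.3 over all 12 libraries (filterByExpr, TMM, 1 mean per group, 8 residual degrees of freedom, common biological coefficient of variation 0.299). Adjusted p-values under 0.05 were called. Limma 3.58.1 and DESeq2 1.42.0 gave alternatives. The test was tried on simulated data. Shares were compared by exact permutation. Names, biotypes, GC content and overlaps came from GENCODE 29.

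The members and the 25 gene lists and 5 marker lists were chosen with earlier results of these data known. Named were 24 core genes, the 10 largest rises and the 10 largest falls (mean of at least 5 CPM, doses without overlap), and for each list at most 4 called genes of mean 1 CPM or more, by smallest p. Some genes that the rule names are not reported here. List members named beyond these were chosen after their values were seen. Depth was 2229069 to 2730309 counts per library at 250 nM and 5887056 to 7351916 at 100 nM, over both substrates. Counts of 0 carry a floor of 3 counts over the group, which covers counting error only.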

Additional observations from a re-analysis of the deposited data

Results flagged for a closer look

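LUM was higher in all 250 nM libraries on gel and lower in all of them on plastic than in the 100 nM libraries of the same substrate, which is what set it apart. Its log2 change was 0.96 on gel and -0.49 on plastic, a difference of 1.45 ± 0.34 (edgeR unadjusted p = 0.00082, adjusted p = 0.75), so the difference did not pass the correction. It was singled out after its values were seen.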

How the results depend on the processing

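Against 1703 genes called on gel, limma-voom with sample weights called 2925, the 6 gel libraries alone 525, DESeq2 2235, the fit with no filter 2255, and the genes without overlapping exons 782, while leaving out 1 library gave 676 to 1843. On plastic, against 1050, limma-voom called 3173, the 6 libraries alone 1655, thinning to the smallest library 620, leaving out both libraries low in ribosomal repeat reads 2101, the genes without overlapping exons 466, DESeq2 1561 and leaving out 1 library 95 to 2202. The difference between substrates called 0 genes under every alternative except the fit with no filter, which called 129. On gel the fit with no filter had 832 higher and 1423 lower, and limma-trend on log2(TPM + 1) had 514 and 924 of 1438. The settings on overlapping genes and on both low libraries were chosen after seeing the data. The replicate numbers did not pair the gel libraries (correlations of same-numbered deviations 0.12, 0.00 and 0.07, and 1 of 3 libraries correlated best with its own number), and the replicate block called 1665 genes on gel, 1074 on plastic and 0 for the difference. Of 113 named genes called, 108 kept their sign under every alternative that gave a value and 43 were called under all of them. The other 5 changed sign with overlapping genes summed, C7orf25 to -0.23, RAB1B to -0.25, SPAG8 to 0.47, PRIM1 to 0.89 and EFEMP2 to -0.063, as did MCM2, not called, to 0.46. Among genes not called, limma-voom gave CDKN2A 0.087, MMP1 0.078, MMP3 0.13 and STC1 0.0665, the TPM fit and the replicate block gave CDKN2A 0.20 and 0.032, GC correction gave MMP1 0.22 and STC1 0.13, length correction gave MDM2 -0.056 and STC1 0.0755, thinning gave COL3A1 0.16, and leaving out both low libraries gave MDM2 -0.15, GDF15 -0.10 and CDKN2A 0.20. Leaving out 1 library gave MDM2 -0.15 to 0.47, GDF15 -0.10 to 1.60, CDKN2A -0.58 to 0.40, CXCL8 -3.93 to 1.64, IL1B -3.18 to 0.95, MMP1 -0.31 to 0.28, MMP3 -1.43 to 1.13, STC1 -0.42 to 0.30 and COL3A1 -0.94 to 0.23. The cause of these shifts was not tested. The shares of counts kept their direction without any 1 gel library, but the difference in ribosomal repeat loci ranged from -7.84 to -0.71 percentage points. Genes near 1 CPM at 250 nM rest on 2 to 3 counts per library.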

Other observations

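Among markers of other cell types, those of leukocytes were near or at 0 on gel and those of endothelium were low. The epithelial keratins KRT18 and KRT19 reached 108 and 51 CPM, and pericyte and smooth muscle markers summed to 346 to 463 CPM at 250 nM. Of 14 epithelial markers 4 passed the filter and none was called, and their sum was 45.7 to 118 CPM at 100 nM and 114 to 171 CPM at 250 nM, with KRT5, KRT14, SFTPC, SFTPA1, SCGB1A1 and FOXJ1 at 0 in all 6 gel libraries. Of 12 endothelial markers 1 passed and was not called, and their sum was 8.11 to 15.4 CPM and 11 to 33.4 CPM, with VWF and CLDN5 at 0. Leukocyte markers summed to 0.137 to 0.544 CPM and 0.330 to 1.94 CPM.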
